A study of Mus musculus with 3 samples.

Results

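Macroautophagy encloses cytoplasm in a double membrane, the autophagosome, which then fuses with a lysosome. A kinase complex starts the process, a lipid kinase complex marks the membrane, lipid transfer proteins let it grow, and ubiquitin-like conjugation couples Atg8-family proteins to its lipid. Cargo receptors bind both the cargo and the Atg8 proteins. In macrophages the same machinery takes part in clearing intracellular bacteria and damaged mitochondria and in the uptake route called LC3-associated phagocytosis. The 36 genes described here are the core genes of that machinery, taken from a list of symbols and matched by symbol to the transcript annotation. All 36 were found among 55450 annotated genes, of which 21901 were protein-coding, and they lay on 18 chromosomes.

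The RNA came from the chromatin fraction of primary macrophages of C57BL/6J mice, grown from bone marrow, and was sequenced as total RNA after depletion of ribosomal RNA. There was a single group, of 3 libraries labelled as biological replicates. The cells of this group had received 100 ng/ml Lipid A, a ligand of Toll-like receptor 4, for 12 h, had then been washed and kept without it for 12 h, and had finally received 100 ng/ml Lipid A again for 15 min. No untreated or singly treated cells were analysed here, so no value below is a response to Lipid A. Age and sex were not collected for the animals, and all 3 libraries carry the same donor identifier. Nothing in the labels ties the libraries to different animals, and part of the spread between them may be technical. Library preparation started from 1000, 250 and 500 ng of RNA for replicates 1, 2 and 3.

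The gene table held 14609979, 17423948 and 24162551 expected counts in replicates 1, 2 and 3. TPM, the deposited abundance unit, divides counts by length and scales every library to one total, so genes can be set side by side within a library. Ribosomal-like genes and features with an effective length under 200 nt took between 59.7% and 64.0% of all TPM in a library. Without them, with TPM rescaled to the same total, the median log2 level of detected protein-coding genes was higher by between 1.23 and 1.39, a shift that the autophagy genes shared. All 8 macrophage markers examined (such as Adgre1, the F4/80 antigen, and Csf1r, the receptor for macrophage colony-stimulating factor) were at 1 TPM or more, with summed levels between 869 and 978 TPM per library. Of 34 markers of neutrophils, dendritic cells, lymphocytes, stroma, red cells and mast cells, 1 reached 1 TPM (Zbtb46, a dendritic cell factor, at 1.58 TPM), their sum was between 5.74 and 6.76 TPM, and 8, among them Elane, Cd3e and Pdgfra, were listed at 0 in the gene table. A mean of at least 10 expected counts was reached by 5 of the 34: Zbtb46, Clec9a, Col1a1, Acta2 and Col3a1. In the read-based table described below, 11 of the 34 reached 1 TPM. Highest there were Cd3d, a lymphocyte marker, at 15.2 TPM and Cxcr2, a neutrophil marker, at 4.61 TPM. In the gene table these averaged 0.0167 and 0.01 TPM. With 1 group in bulk RNA, fewer cells that use a gene and less RNA per cell cannot be told apart.

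Chromatin RNA holds transcripts still being made or spliced, and a large share of the autophagy TPM sat in transcripts annotated as retaining an intron. Sequences from 6 of the genes are shown first, as examples of what separates a spliced from an unspliced read. They are Sqstm1, the most abundant gene of the list, and 5 genes with high shares in intron-retaining transcripts in the alignment-based table: Uvrag, Becn1, Atg16l1, Pik3r4 and Atg4b. Each pair of lines gives the last 30 bases of a coding exon in lower case, followed in capitals by the next 30 bases. Those are intron bases in the retained-intron transcript and bases of the next exon in the protein-coding transcript. Both were read 5′ to 3′ from the GENCODE M21 transcript sequences.
Sqstm1-207, exon 5 into the intron: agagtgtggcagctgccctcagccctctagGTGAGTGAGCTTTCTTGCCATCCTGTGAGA
Sqstm1-202, exon 5 into exon 6: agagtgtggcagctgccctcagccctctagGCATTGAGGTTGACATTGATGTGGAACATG
Uvrag-202, exon 12 into the intron: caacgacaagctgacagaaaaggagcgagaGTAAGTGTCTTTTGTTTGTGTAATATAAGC
Uvrag-201, exon 12 into exon 13: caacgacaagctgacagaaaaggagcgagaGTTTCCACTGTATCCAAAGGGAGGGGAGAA
Becn1-210, exon 4 into the intron: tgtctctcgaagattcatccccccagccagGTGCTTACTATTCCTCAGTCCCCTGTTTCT
Becn1-205, exon 4 into exon 5: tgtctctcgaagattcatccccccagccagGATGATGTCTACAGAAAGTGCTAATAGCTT
Atg16l1-204, exon 13 into the intron: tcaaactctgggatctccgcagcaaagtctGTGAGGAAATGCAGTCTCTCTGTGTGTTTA
Atg16l1-201, exon 13 into exon 14: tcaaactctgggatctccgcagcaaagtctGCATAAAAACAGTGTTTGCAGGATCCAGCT
Pik3r4-204, exon 15 into the intron: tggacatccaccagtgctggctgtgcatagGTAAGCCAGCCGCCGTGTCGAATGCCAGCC
Pik3r4-201, exon 15 into exon 16: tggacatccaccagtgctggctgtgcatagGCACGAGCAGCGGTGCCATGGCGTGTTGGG
Atg4b-211, exon 10 into the intron: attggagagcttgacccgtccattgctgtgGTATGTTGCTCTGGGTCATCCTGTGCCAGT
Atg4b-201, exon 10 into exon 11: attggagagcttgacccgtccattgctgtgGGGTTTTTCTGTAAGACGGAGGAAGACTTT

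The exon and intron windows lie, in mm10, at chr11:50205993-50206052 (minus strand), chr7:98979606-98979665 (minus strand), chr11:101296228-101296287 (minus strand), chr1:87785967-87786026 (plus strand), chr9:105678291-105678350 (plus strand) and chr1:93784869-93784928 (plus strand). In all 6 the intron opens with GT, the usual first bases of an intron. Sqstm1-207 is 585 nt long, and 362 nt of it lie outside the exons of the leading coding transcript. Becn1-210 is 3476 nt long and holds 2 complete introns, 1455 nt in all. Atg16l1-204 is 3400 nt long with 2924 nt outside the coding transcript's exons, while Uvrag-202 has 387 of 1792 nt, Pik3r4-204 has 1192 of 4929 nt and Atg4b-211 has 252 of 477 nt there. Atg16l1-204 holds 1 complete intron of the leading coding transcript. Sqstm1-207, Uvrag-202, Pik3r4-204 and Atg4b-211 hold no complete intron of it and run past an exon end. A share in retained-intron transcripts is thus not a share of whole introns kept. The deposited tables hold no junction reads, so a pre-mRNA not yet spliced and a finished transcript that keeps intron bases cannot be told apart in them.

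Nearly the whole machinery was detected in chromatin RNA. A mean of at least 10 expected counts, the limit used here for detection, was reached by 35 of the 36 genes, against 53.5% of all protein-coding genes. The same number, 35, averaged at least 1 TPM, against 48.5% of protein-coding genes. The exception in both counts was Map1lc3a, one of the LC3 genes. The median level of the 36 genes was 16.5 ± 0.715 TPM (SD, n = 3), or 4.13 ± 0.06 on the log2(TPM + 1) scale (SD, n = 3). The median over the 11724 detected protein-coding genes was 9.84 ± 0.216 TPM and 3.44 ± 0.03 on the log2 scale (SD, n = 3).

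**Figure D1:**
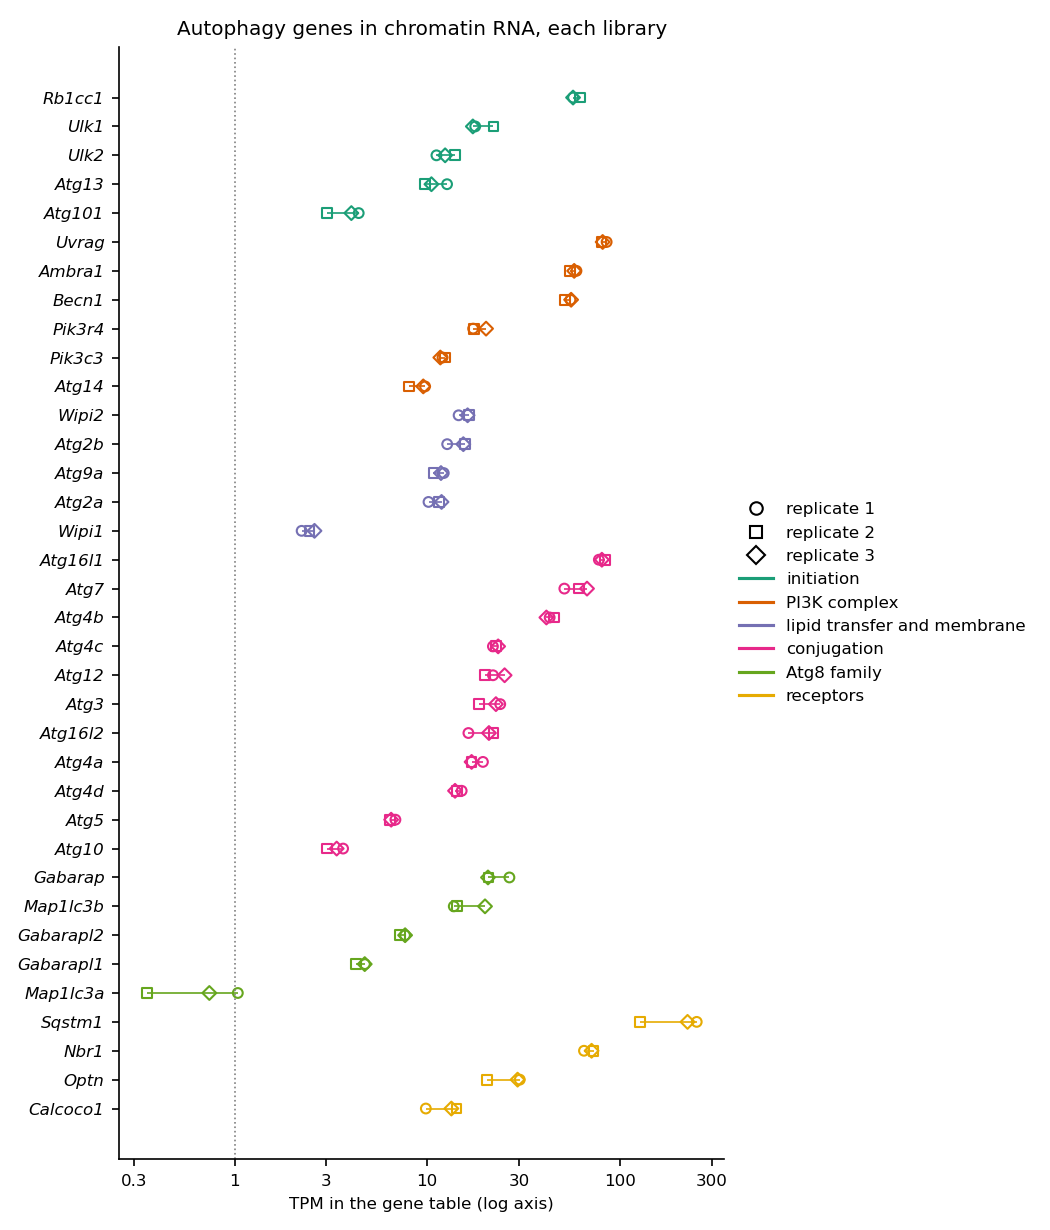
Levels of the 36 autophagy genes in TPM (horizontal log axis), 1 row per gene grouped by role, with 1 symbol per library and a line from the lowest to the highest library. Sqstm1 lies farthest right in all 3 libraries, Map1lc3a farthest left, and most genes show libraries close together; the dotted line marks 1 TPM.

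Of the 5 genes of the initiation complex, the scaffold Rb1cc1 (FIP200) stood above the rest. Rb1cc1 measured 57.2, 61.9 and 57.2 TPM in replicates 1, 2 and 3. Ulk1, the kinase that receives the signals of mTOR and AMPK, measured 17.8, 22.1 and 17.3 TPM, and its paralog Ulk2 measured 11.2, 13.9 and 12.4 TPM. Both kinases were highest in replicate 2, and their libraries did not overlap. Atg13, the adaptor between the kinases and Rb1cc1, measured 12.7, 9.77 and 10.5 TPM. Its stabilising partner Atg101 was the lowest of the complex at 4.41, 3.01 and 4.04 TPM, from only 34, 34 and 54 expected counts. The complex thus spanned 58.8 ± 2.73 TPM for Rb1cc1 to 3.82 ± 0.725 TPM for Atg101 (SD, n = 3).

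The class III phosphatidylinositol 3-kinase genes had the second-highest median of the role groups over all transcripts, 36.4 ± 1.66 TPM (SD, n = 3). In protein-coding transcripts their median was 5.955 TPM, above only that of the lipid transfer and membrane genes, 5.763 TPM. Over all transcripts they fell into a high and a low set. Uvrag, the subunit of the endosomal form of the complex, measured 85.4, 80.2 and 81.4 TPM. Ambra1, a regulator of Becn1, averaged 57.6 ± 2.14 TPM, and Becn1 itself, the scaffold of the complex, measured 55.4, 51.9 and 55.9 TPM. The other 3 genes were lower in every library. Pik3r4, the regulatory subunit, measured 17.3, 17.6 and 20.2 TPM, and the catalytic subunit Pik3c3 averaged 12.0 ± 0.346 TPM (SD, n = 3). Atg14, which directs the complex to autophagosome formation and takes the place of Uvrag in it, was lowest at 9.75, 8.01 and 9.54 TPM. Uvrag spans 256121 nt and overlaps several noncoding genes on both strands, so its level carries more doubt than that of a compact gene.

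Genes for lipid transfer and membrane supply sat close together except for Wipi1. Wipi2, which binds the lipid mark and recruits Atg16l1, measured 14.6, 16.4 and 16.2 TPM. Atg2b and Atg2a, the tube-shaped lipid transfer proteins, measured 12.7, 15.8 and 15.4 TPM and 10.2, 11.5 and 11.9 TPM. Atg9a, the scramblase carried on seed vesicles, averaged 11.6 ± 0.727 TPM (SD, n = 3). Wipi1 measured 2.23, 2.45 and 2.6 TPM, below every other detected gene in its mean. The 4 genes above Wipi1 were all between 10.2 and 16.4 TPM in all libraries.

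The 11 conjugation genes ranged from 80.7 ± 2.83 TPM for Atg16l1 to 3.36 ± 0.316 TPM for Atg10 (SD, n = 3). Atg16l1, which sets the site of lipid coupling, measured 77.8, 83.5 and 80.7 TPM. Its paralog Atg16l2 measured 16.4, 22.1 and 20.9 TPM. Atg16l2 overlaps Fchsd2 on the opposite strand over 21372 nt, and Fchsd2 averaged 105 TPM; no header or label states whether counting used strand, and without it the reads of both genes cannot be told apart in the overlap. Atg16l1 also hosts small Cajal body RNAs: Gm25395 averaged 2354 ± 340 TPM and Scarna6 averaged 617 ± 155 TPM (SD, n = 3), and neither shares an exon with an Atg16l1 transcript.

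Atg7, the E1-like enzyme that activates both Atg12 and the Atg8 proteins, measured 51.5, 61.6 and 67.6 TPM. The E2-like enzymes stood lower: Atg3, which passes Atg8 proteins to lipid, averaged 21.8 ± 2.79 TPM, and Atg10, which passes Atg12 to Atg5, measured 3.66, 3.03 and 3.39 TPM. Over all transcripts, the product pair of that second branch differed in level. Atg12 measured 21.95, 19.97 and 25.23 TPM, while its acceptor Atg5 averaged 6.59 ± 0.219 TPM (SD, n = 3). In protein-coding transcripts alone the libraries of the pair overlapped, with 5.97, 5.28 and 6.66 TPM for Atg12 and 6.84, 6.43 and 6.5 TPM for Atg5. Of the cysteine proteases that prime and recycle Atg8 proteins, Atg4b measured 43.2, 45.7 and 41.6 TPM and Atg4c measured 21.9, 22.7 and 23.4 TPM. Atg4a measured 19.5, 17.0 and 17.0 TPM, and Atg4d measured 15.1, 14.3 and 14.0 TPM. Atg4b was above the other 3 in each library, and the libraries of Atg4a lay between those of Atg4c and Atg4d without overlap. In the read-based table Atg4d, at 19.9, 19.4 and 18.4 TPM, was above Atg4a, at 17.4, 17.3 and 16.2 TPM. In coding transcripts of the alignment-based table the libraries of Atg4a and Atg4d overlapped. Atg4d overlaps Kri1 on the opposite strand over 4316 nt, and Kri1 averaged 41.8 TPM. The doubt about strand given for Atg16l2 thus holds for Atg4d too.

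The Atg8 family, whose lipid-bound proteins coat the autophagosome, had the lowest median of the role groups over all transcripts, 7.53 ± 0.245 TPM (SD, n = 3). In protein-coding transcripts its median, 6.11 TPM, was above those of the class III phosphatidylinositol 3-kinase genes and of the lipid transfer and membrane genes. Gabarap measured 26.7, 20.8 and 20.7 TPM. Map1lc3b, the LC3 form most used to mark autophagosomes, measured 13.7, 14.3 and 20.0 TPM. All 8400 nt of Map1lc3b lie within Gm20388, a protein-coding gene on the same strand with a mean of 79.6 counts. Reads of Map1lc3b and Gm20388 may thus have been divided between them. Gabarap was above Map1lc3b in every library, by a small margin in replicate 3. Gabarapl2 measured 7.67, 7.25 and 7.68 TPM, and Gabarapl1 measured 4.75, 4.29 and 4.74 TPM. Map1lc3a measured 1.04, 0.35 and 0.74 TPM from 8, 3 and 10 expected counts, too few for a firm level. Gabarapl2 has processed pseudogenes in the annotation; Gm3724, identical to it at 99.4% of 349 aligned nt, was listed at 5.98 TPM from a mean of 12.0 counts, so reads of the 2 may have been divided between them.

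The cargo receptors held the most abundant gene. Sqstm1 (p62), which carries ubiquitin-marked cargo, measured 250.7, 127.7 and 224.6 TPM, above every other gene of the list in every library. It made up 18.8% of the summed mean TPM of the 36 genes, and 98.4% of detected protein-coding genes had a lower mean. Nbr1, its relative, measured 65.2, 73.1 and 71.3 TPM. Optn (optineurin), a receptor for bacteria and mitochondria, measured 30.2, 20.5 and 29.5 TPM. Calcoco1, a receptor for endoplasmic reticulum, measured 9.84, 14.2 and 13.4 TPM. Sqstm1 and Optn were both lowest in replicate 2, whereas Nbr1 and Calcoco1 were both lowest in replicate 1.

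In the order of mean level, 11 of the 35 neighbouring pairs had libraries that did not overlap. Sqstm1 was apart from Uvrag, Atg16l1 from Nbr1, Becn1 from Atg4b, and Atg4b from Optn. From Optn at rank 10 down to Atg4d at rank 22, every neighbour overlapped the next, so adjacent genes in that stretch cannot be ordered, although genes farther apart in it, such as Atg4c and Atg4a, did not overlap. At the low end the steps of the gene table were clear again: Gabarapl2, Atg5 and Gabarapl1 were separate from each other, as were Atg10, Wipi1 and Map1lc3a. Not all of this order held in the read-based table. Atg10 averaged 11.7 TPM there, above Atg5 at 9.51 TPM and Gabarapl1 at 7.91 TPM, and the libraries of Atg5 and Gabarapl1 overlapped.

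Between libraries the genes of the list varied little. The spread, taken as the SD over libraries of log2(TPM + 1), had a median of 0.107 over the 35 detected genes and 0.158 over all detected protein-coding genes. With at least 100 counts the medians were 0.108 over 32 genes of the list and 0.150 over 8431 genes. The highest library was above 1.5 times the lowest for 1 of the 35 genes, Sqstm1, against 28.0% of detected protein-coding genes. Among genes with at least 100 counts that share was 17.0%, beside 1 of 32. In the read-based table Optn passed that fold too, at 1.59. The 5 detected genes of largest spread were Sqstm1 at 0.52, Optn at 0.30, Map1lc3b at 0.28, Calcoco1 at 0.26 and Atg101 at 0.23. Gabarapl2, Atg5 and Pik3c3 were at the other end with spreads of 0.04.

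The highest library was replicate 1 for 15 of the 35 genes, replicate 2 for 11 and replicate 3 for 9. Over detected protein-coding genes the shares were 36.3%, 29.3% and 33.8%. The order was not stable to the scale: replicate 1 was highest for 6 genes with TPM rescaled without ribosomal-like and short features, for 10 with counts scaled by trimmed means, and for 11 in the read-based table. The shares over all detected protein-coding genes were not computed at these other scales, so the change cannot be read as particular to the list. Sqstm1 was 1.96-fold lower in replicate 2 than in replicate 1 in both quantifications, and replicate 2 was the library made from the least RNA. The part of starting RNA in that difference was not tested.

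Each gene was also quantified directly from the reads, and that second, read-based table gave a higher level for most of the list. It was higher for 30 of the 35 detected genes, with a median ratio of 1.33 beside 1.31 over all detected protein-coding genes. The share of all detected protein-coding genes that were higher there was not computed, so the count cannot be read as particular to the list. More than 2-fold separated the tables for 3 of 35 genes, against 20.1% of detected protein-coding genes. Atg7 measured 128, 121 and 138 TPM in the read-based table, 2.14-fold its gene table mean. Atg13 measured 31.1, 33.0 and 30.1 TPM, 2.86-fold higher, and Atg10 measured 10.7, 12.3 and 12.1 TPM, 3.48-fold higher. For all 3 genes the libraries of the 2 tables did not overlap.

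Short transcripts held much of the gap in those 3 genes. Atg13-204, a processed transcript of 644 nt, averaged 0.07 TPM in the alignment-based transcript table and 9.23 TPM in the read-based table. The coding transcript Atg13-202 averaged 6.42 and 6.18 TPM in the same tables. Atg10-202, of 826 nt, averaged 0.22 and 5.73 TPM, and Atg7-208, of 650 nt, averaged 0.66 and 18.9 TPM. Becn1 had a like case outside the 3 genes: Becn1-206, of 239 nt, was listed at 0 in the alignment-based table in all libraries and averaged 23.0 TPM in the read-based table, where it led the gene. Atg7 also contains processed pseudogenes on its own strand, of which Gm19040 averaged 747 counts.

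**Figure D2:**
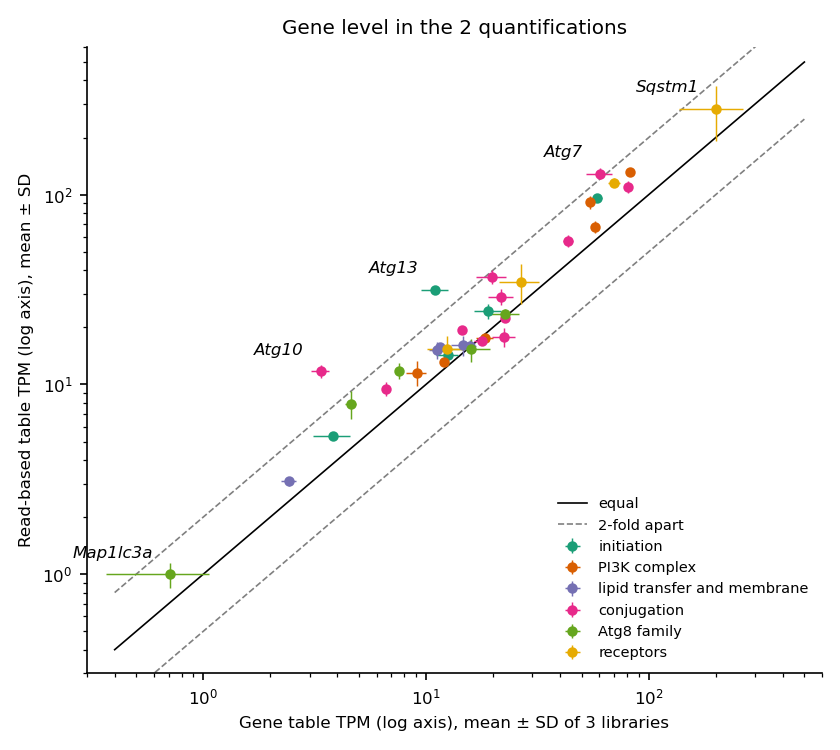
Mean TPM of each gene in the read-based table (vertical log axis) against the gene table (horizontal log axis), with bars for the SD of 3 libraries and colours for roles. Atg7, Atg13 and Atg10 lie above the upper dashed line of a 2-fold difference. Above the line of equality lie 30 of the 35 detected genes, a share not computed over all detected protein-coding genes.

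Transcripts annotated as retained intron carried a large part of the signal. Of the 35 genes of at least 1 TPM, 24 have such a transcript in the annotation. For these 24 the median share of TPM in retained-intron transcripts was 56.8% ± 0.667 in the alignment-based table and 54.1% ± 0.565 in the read-based table (SD, n = 3). Over 6584 protein-coding genes of at least 1 TPM with such a transcript, the medians were 46.8% ± 1.24 and 45.3% ± 0.682 (SD, n = 3). Counted over all 35 genes, including those without such a transcript, the median was 39.7% ± 3.4, beside 25.4% ± 1.1 over 10629 genes (SD, n = 3). The direction of this difference depended on the unit. As a share of expected counts, which does not divide by the length of these often short transcripts, the median was 22.5% ± 1.27 for the 24 genes and 30.1% ± 1.16 for the 6584 genes (SD, n = 3).

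The share passed 50% of TPM for 14 of the 24 genes against 44.5% of the background, in the read-based table for 13 against 43.0%, and in both tables for 9 against 34.1%. By expected counts it was 7 of 24 against 29.6%. Pik3r4 had the highest share, with 87.7%, 90.1% and 83.7% in replicates 1, 2 and 3. Becn1 followed with 89.3%, 80.3% and 86.7%, and Atg4b with 85.8%, 75.3% and 76.5%. The libraries of these 3 genes overlapped. Atg16l1 had 74.6%, 79.3% and 76.2%, and Atg12 had 72.8%, 73.6% and 73.6%. Uvrag came next with 70.5%, 73.7% and 73.7%. In the read-based table the share stayed high for Atg16l1, at 80.6%, for Atg4b, at 73.1%, for Pik3r4, at 72.6%, and for Atg12, at 69.0%. It was 47.8% for Becn1 and 37.4% for Uvrag, the latter below that table's background median. By expected counts the shares were 87.9% for Pik3r4, 78.8% for Becn1, 72.2% for Atg16l1, 59.8% for Atg4b and 45.4% for Atg12.

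At the level of single transcripts, the one with the most TPM was protein-coding for 21 of the 36 genes, retained-intron for 13 and processed for 2 in the alignment-based table. In the read-based table the numbers were 15, 14 and 6, with 1 transcript marked for nonsense-mediated decay. The same transcript led in both tables for 20 genes. Leading transcripts were not counted over all protein-coding genes, so these numbers cannot be read as particular to the list. Sqstm1-207, the read-through form shown above, led Sqstm1 in both, with 79.5, 48.3 and 73.5 TPM in the alignment-based table. In that table all retained-intron transcripts of Sqstm1 held 68.4% of its TPM but 24.3% of its expected counts. Uvrag-202 led Uvrag in both tables, with 35.4, 38.7 and 41.8 TPM in the alignment-based table. Becn1-210 led Becn1 in the alignment-based table with 18.3, 15.6 and 16.3 TPM, and Atg16l1-204 led Atg16l1 there with 19.3, 17.1 and 17.6 TPM. In the GABARAP genes a coding transcript led: Gabarapl2-201 held 81.2% of the TPM of Gabarapl2, and Gabarap-201 held 45.2% of that of Gabarap.

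**Figure D3:**
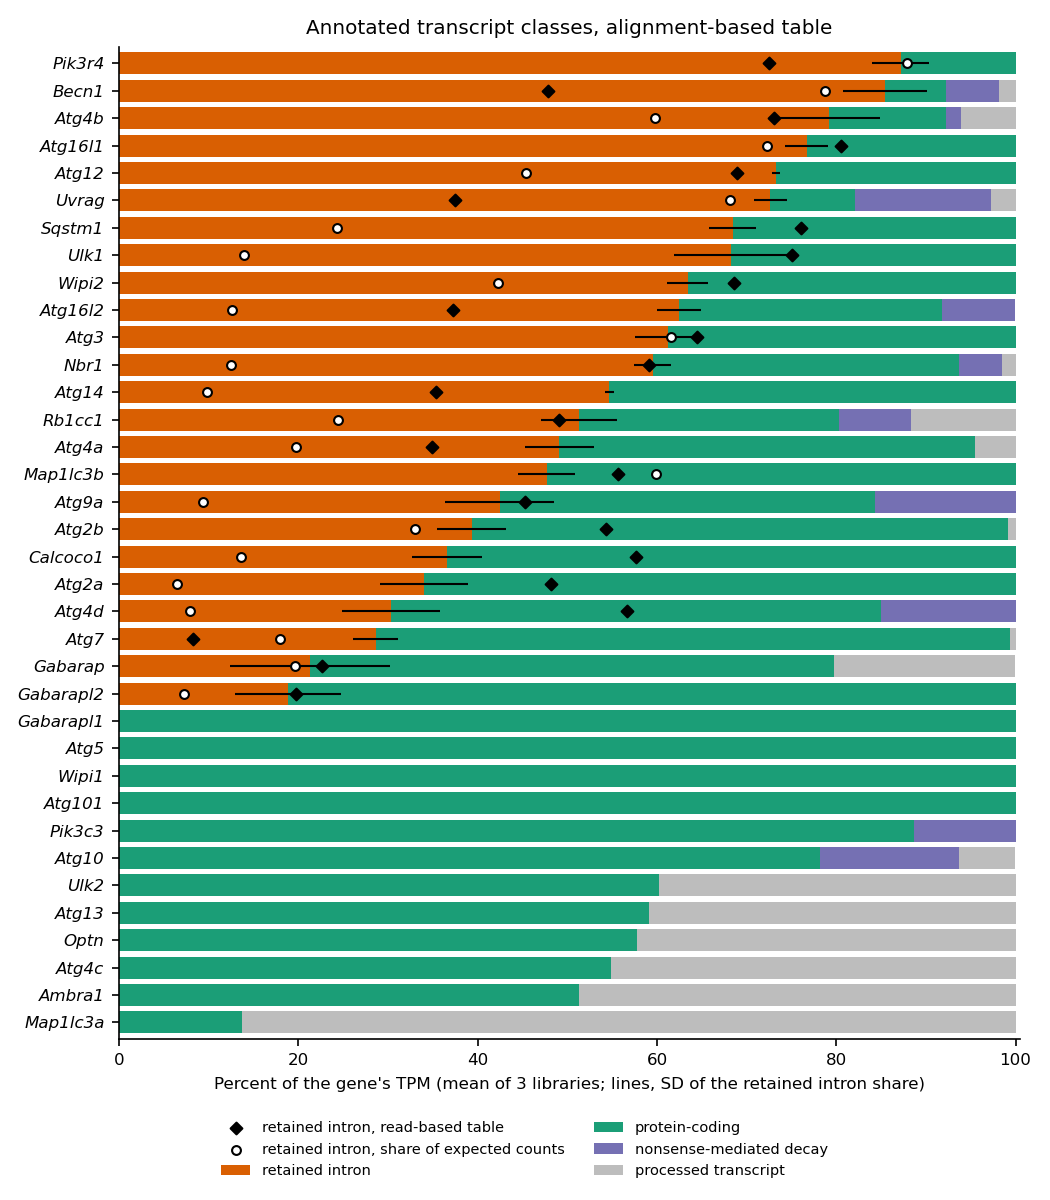
Share of each gene's TPM by annotated transcript class in the alignment-based table (stacked bars, mean of 3 libraries, lines for the SD of the retained-intron share). Diamonds give the retained-intron share in the read-based table and open circles that by expected counts; Pik3r4 and Becn1 head the plot, and for genes such as Sqstm1 and Ulk1 the circles lie far left of the bars.

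Read from protein-coding transcripts alone, the order of the genes was another one. The median level was 3.01 ± 0.11 on the log2(TPM + 1) scale, beside 2.58 ± 0.06 over detected protein-coding genes (SD, n = 3). Sqstm1 stayed first by mean with 72.3, 40.5 and 76.6 TPM in coding transcripts, again lowest in replicate 2. In that replicate Atg7 was above it, at 43.6 TPM. In the read-based table Atg7 came first and Sqstm1 second. In the alignment-based table Atg7 was second by mean at 42.8 ± 7.67 TPM and Ambra1 ranked 3 at 29.5 ± 1.38 TPM (SD, n = 3). Becn1 went from rank 8 to rank 32, with 3.61, 3.56 and 3.98 TPM in coding transcripts. Uvrag went from rank 2 to rank 17, with 7.55, 7.65 and 8.15 TPM, and Pik3r4 from rank 17 to rank 35, with 2.13, 1.74 and 3.29 TPM. Pik3c3 was below Becn1 and Pik3r4 in every library over all transcripts. In coding transcripts it was above both in every library, at 10.7 ± 0.815 TPM (SD, n = 3). In the read-based table the coding level of Becn1 was 5.36 ± 0.27 TPM and that of Pik3c3 was 10.1 ± 0.147 TPM (SD, n = 3). This reading of coding transcripts was chosen after the data had been seen.

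**Figure D4:**
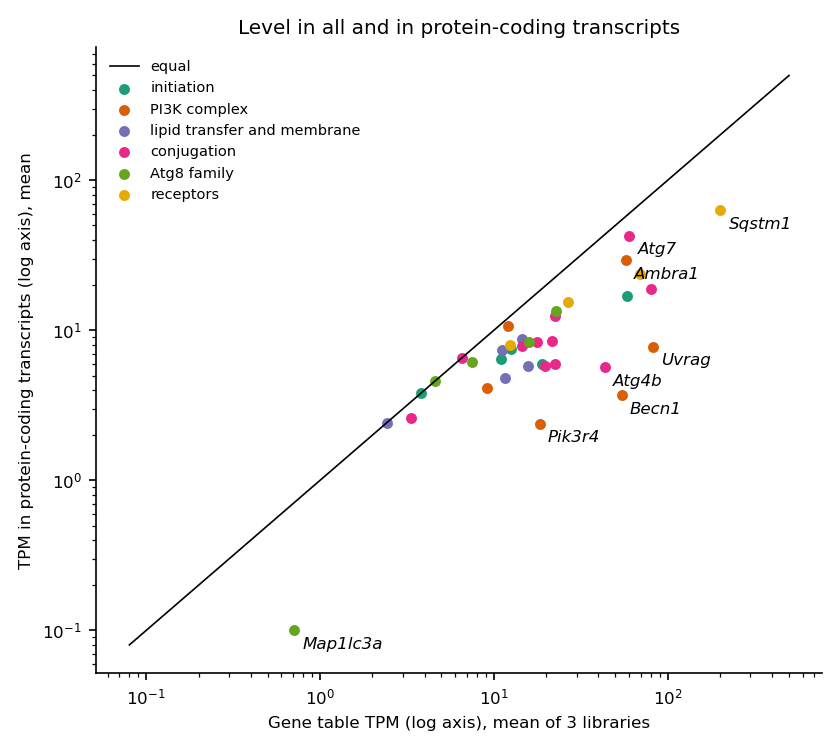
Mean TPM in protein-coding transcripts (vertical log axis) against mean TPM in the gene table (horizontal log axis) for the 36 genes, with colours for roles and a line of equality. Uvrag, Becn1, Pik3r4 and Atg4b lie far below the line, while Pik3c3 and Atg5 lie near it.

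Within paralog pairs, TPM per library gave the same order in all 3 libraries for each of the 11 pairs examined. Wipi2 was 6.48-fold above Wipi1 (between 6.24-fold and 6.7-fold over libraries), and Atg16l1 was 4.11-fold above Atg16l2 (between 3.78-fold and 4.75-fold). Gabarap was 4.92-fold above Gabarapl1 and 3.0-fold above Gabarapl2, and Gabarapl2 was 1.64-fold above Gabarapl1. Map1lc3b was 24.4-fold above Map1lc3a, with a wide range from 13.2-fold to 40.8-fold because of the few counts of Map1lc3a. These 6 orders were the same in every library of the read-based table, but the sizes depended on the transcripts counted. In coding transcripts Wipi2 was 2.37-fold above Wipi1, Gabarap 2.84-fold above Gabarapl1 and 2.13-fold above Gabarapl2. In the coding transcripts of the read-based table these ratios were 1.62, 1.27 and 1.05, and in replicate 2 Gabarap was at 0.943 of Gabarapl1 and 0.785 of Gabarapl2, so Gabarap was not separated from either there. With 3 libraries, a sign-flip test cannot give an exact p below 0.25, so none was run.

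For another 4 pairs the direction itself was reversed in coding transcripts of the alignment-based table. Ulk1 was 1.52-fold above Ulk2 over all transcripts, but in coding transcripts it was at 0.718, 0.824 and 0.835 of Ulk2 in replicates 1, 2 and 3. Atg4b was 2.44-fold above Atg4a, 1.92-fold above Atg4c and 3.01-fold above Atg4d over all transcripts. In coding transcripts it was at 0.52 to 0.814 of Atg4a, at 0.436 to 0.492 of Atg4c and at 0.654 to 0.75 of Atg4d. For these 4 pairs the reversal held in all 3 libraries of the alignment-based table. In the coding transcripts of the read-based table, Ulk1 was below Ulk2 and Atg4b below Atg4c in every library, Atg4b was at 0.85, 0.922 and 1.12 of Atg4a, and Atg4b was 1.42-fold above Atg4d. Atg2b was 1.30-fold above Atg2a in the gene table, while in the read-based table the ratio was 1.06 on average and below 1 in replicate 2, so this pair was not separated.

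**Figure D5:**
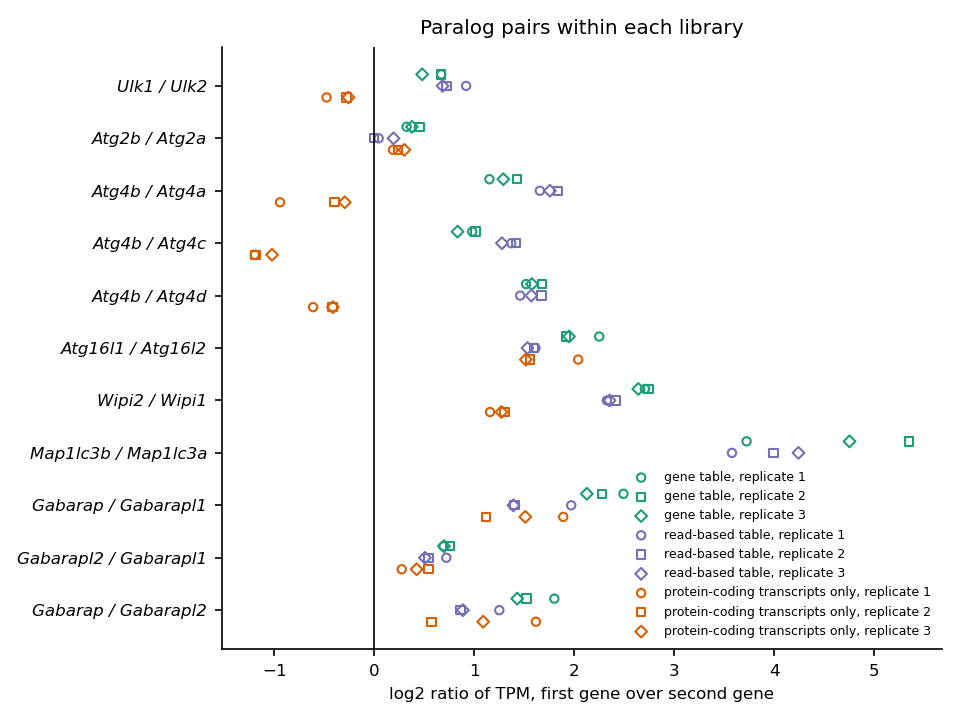
Log2 ratio of TPM within each library for the 11 paralog pairs (first gene over second), in the gene table, in the read-based table and in protein-coding transcripts alone, with 1 symbol per library. Ratios of Ulk1 over Ulk2 and of Atg4b over its paralogs lie right of 0 over all transcripts and left of 0 in coding transcripts; Map1lc3b over Map1lc3a has no coding ratio because Map1lc3a was listed at 0 there in 2 libraries.

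A further 49 genes act around the core machinery, in membrane supply, fusion with lysosomes, selective receptors and control. At least 1 TPM was reached by 48 of them, against 48.5% of all protein-coding genes. The same 48 were detected, against 53.5% of all protein-coding genes. Their median level was 4.54 ± 0.09 on the log2(TPM + 1) scale (SD, n = 3), beside 4.13 for the core genes. Vmp1, a scramblase of the endoplasmic reticulum needed for autophagosome formation, was highest at 464.9, 340.7 and 363.8 TPM. Tecpr1, a membrane repair and tethering factor, followed at 249.1, 173.9 and 316.2 TPM, and Tbk1, the kinase that phosphorylates Optn and Sqstm1, at 187.2, 158.4 and 148.2 TPM. Nfe2l2 (NRF2), a regulator of antioxidant genes, measured 113.7, 75.5 and 125.5 TPM. Of the 48 detected genes, 22 were lowest in replicate 2, 19 in replicate 1 and 7 in replicate 3. Vmp1, Tecpr1 and Nfe2l2 were among the 22. The share of all detected protein-coding genes lowest in each library was not computed, so these counts cannot be read as particular to these genes. Wdfy3 (Alfy), a large adaptor for protein aggregates, measured 83.0, 99.4 and 84.5 TPM. Lowest in the gene table were Bnip3, a receptor for mitochondria, at 4.13, 6.24 and 3.15 TPM, Retreg1, a receptor for endoplasmic reticulum, at 2.86, 3.14 and 5.29 TPM, and Prkaa2, a catalytic subunit of AMPK, at 0.1, 0.02 and 0.07 TPM. The place of Retreg1 did not hold in the read-based table, where it averaged 22.5 ± 3.9 TPM and Snap29, a fusion protein of the SNARE family, was among the 3 lowest at 5.73 ± 0.456 TPM (SD, n = 3). The other AMPK catalytic gene, Prkaa1, averaged 12.4 ± 1.12 TPM (SD, n = 3).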

How the data were processed

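Per the deposited descriptions of the files, the authors made a gene table and a transcript table from transcriptome alignments, and a second transcript table directly from the reads, all on mm10 with GENCODE M21. The deposited values used were expected counts (estimated counts, not whole) and TPM as the authors gave them. Tools, strand use and filters are not given in the sources used here. Between 0.228% and 1.24% of expected counts sat in rows that name no annotated gene and were left out.

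Computed here, with Python 3.11.15 (pandas 2.3.3): means and SD over 3 libraries, log2(TPM + 1), shares of TPM by annotated transcript class, and ratios of paralogs. Trimmed-mean scaling came from edgeR 4.0.16 and size factors from DESeq2 1.42.0, on rounded expected counts, as alternatives only. Near copies were searched with BLAST 2.17.0 (at least 95% identity over 200 nt). With 1 group no test was run. The functions were tested on simulated counts.

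The 36 genes and the other lists were chosen with earlier results of these data known. Values in each library are given for the highest and lowest gene of each role, the Atg8 family, the receptors, paralog pairs, the 5 largest spreads, undetected genes, genes over 2-fold apart between tables and the 5 highest retained-intron shares; of other pathway genes, for the 5 highest and 3 lowest. Prkaa1 and Snap29 were added after their values were seen.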

Additional observations from a re-analysis of the deposited data

How the results depend on the processing

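With 1 group of 3 libraries, the data give levels and spreads, not responses, and the replicates share a donor identifier. Low genes (Map1lc3a, Atg101, Atg10, Wipi1) rest on few counts. The median level of the 36 genes, 4.13 on the log2(TPM + 1) scale, was 4.22 in the read-based table, 5.47 with rescaled TPM, 4.05 with a pseudocount of 0.1 and 3.01 in protein-coding transcripts alone, and between 4.10 and 4.16 with 1 library left out. The median spread of 0.107 was between 0.0687 and 0.115 with 1 library left out, lowest without replicate 1, where all detected protein-coding genes were at 0.111. It stayed below that of all detected protein-coding genes in all 9 scales and library sets compared, closest in the read-based table at 0.109 beside 0.138. Rescaled TPM left 6 genes highest in replicate 1 in place of 15, and the same share over all detected protein-coding genes was not computed with rescaled TPM. The median retained-intron share over 35 genes, 39.7%, was 47.1% with genes of at least 5 TPM and 12.4% as a share of expected counts. The cause of these shifts was not tested, other than that retained-intron transcripts are often short. In protein-coding transcripts alone the log2 ratio was -0.34 for Ulk1 over Ulk2, -0.55 for Atg4b over Atg4a, -1.14 for Atg4b over Atg4c and -0.48 for Atg4b over Atg4d. In protein-coding transcripts of the read-based table it was -0.23 for Ulk1 over Ulk2, -0.11 for Atg2b over Atg2a, -0.063 for Atg4b over Atg4a and -0.75 for Atg4b over Atg4c. The alternatives on coding transcripts and on shares of expected counts were chosen after seeing the data. No paired analysis was possible because there is 1 group and its result comes from no test.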

Other observations

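Mir1929, a microRNA gene inside an intron of Atg5, was listed at 0 in the gene table in all 3 libraries. In the read-based table it was listed at 24.3, 49.9 and 41.3 TPM in replicates 1, 2 and 3, above the level of Atg5 itself in that table, which was 8.55, 10.1 and 9.9 TPM. The Mir1929 entry, of 93 nt, is shorter than the fragments of at least 250 nt selected for these libraries; which reads stand behind this value was not tested.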
